A study of Homo sapiens with 6 samples.

Results

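The genes described here are the epidermal growth factor receptor EGFR, its partner receptors ERBB2 and ERBB3, the ligands HBEGF, AREG, EREG and TGFA, and the negative regulators ERRFI1 and LRIG1. They were taken by gene symbol, and all 9 were found among the 23002 genes of the deposited table. Of these 9, 6 were expressed enough to be tested, a mean of at least 0.5 FPKM (fragments scaled to gene length and library size), among 11870 such genes in all. The RNA came from U251, a human glioblastoma cell line. The sh-NC group (3 samples) carried a lentivirus with a non-targeting hairpin, and the sh-TRAF2 group (3 samples) carried a lentivirus with a hairpin against TRAF2, the adaptor and ubiquitin ligase that acts below the TNF receptors. Cells of both groups were made into stable lines by lentiviral transduction and puromycin selection, and the labels name no TNF-α treatment for either. The sources used here do not state whether a line is 1 clone, or what separates its biological replicates, so the p-values below measure the spread between these samples only.

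EGFR is a receptor tyrosine kinase of the cell surface. A bound ligand makes it pair with a second EGFR or with ERBB2 or ERBB3, and the pair signals through the RAS-ERK and PI3K-AKT cascades to drive growth and migration. ERBB2 binds no known ligand, and ERBB3 has a weak kinase. The ligands are made as membrane-anchored precursors, and metalloproteases of the ADAM family cut them free. ERRFI1 (also called MIG6) binds the active kinase and is itself induced by the receptor, whereas LRIG1 promotes the removal of the receptor. In glioblastoma EGFR is one of the genes most often amplified or mutated.

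As a check of the labels, TRAF2 itself had 15.1, 18.4 and 15.3 FPKM in sh-NC and 3.26, 3.22 and 3.33 in sh-TRAF2, lower by 79.9% in the means. Recovered reads on genes ran from 33999558 to 36823562 per sample. Of 8 markers of glioma and glial cells, VIM, NES, CD44, SOX2 and SOX9 were expressed, GFAP was low, and S100B and OLIG2 were under 0.5 FPKM in every sample. The summed level of these markers was 1459 to 1531 FPKM in sh-NC and 1810 to 1855 in sh-TRAF2. Most of that sum was VIM, at 1208 to 1284 FPKM in sh-NC and 1557 to 1606 in sh-TRAF2. SOX2, SOX9 and CD44 did not pass the test (log2 fold changes 0.12, 0.11 and -0.07), and CD44 was lower in every sh-TRAF2 sample. NES, a neural stem cell filament, and VIM, a mesenchymal filament, rose with the knockdown (log2 fold changes 1.12 and 0.35), and GFAP also passed the test at 1.11 with overlapping groups. GFAP averaged 0.467 FPKM in sh-NC, under the filter, and was tested only through its sh-TRAF2 mean of 1.18. With no filter its adjusted p was 0.12 from limma. What part NES, VIM and GFAP have in the results below was not tested. Among markers of leukocytes, endothelium and epithelium, all 8 genes in the table had summed levels per cell type of at most 0.633 FPKM, with PTPRC, PECAM1 and EPCAM under 0.5 FPKM in every sample. In bulk RNA, fewer cells that express a gene and less RNA per cell cannot be told apart.

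After TRAF2 knockdown EGFR fell and the ligand HBEGF rose, while ERBB2, ERRFI1 and LRIG1 did not pass the test. The ligand TGFA also passed as higher, but narrowly (adjusted p = 0.048 from limma) and with overlapping groups. A gene passed at a Benjamini-Hochberg adjusted p under 0.05 from limma over all 11870 genes. That threshold was passed by 44.6% of all genes tested, so 3 of 6 members is close to the background. By direction, 2 members were higher, against 23.7% of all genes, and 1 was lower, against 20.9%. With the fold threshold of the study added, an absolute log2 fold change above 1, EGFR alone of the members passed, against 1.72% of all genes in either direction, 0.733% lower and 0.986% higher. Over the 6 tested members the median log2 fold change was 0.15, against 0.02 over all genes. Fold changes are on the scale of log2(FPKM + 0.1), sh-TRAF2 over sh-NC.

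**Figure D1:**
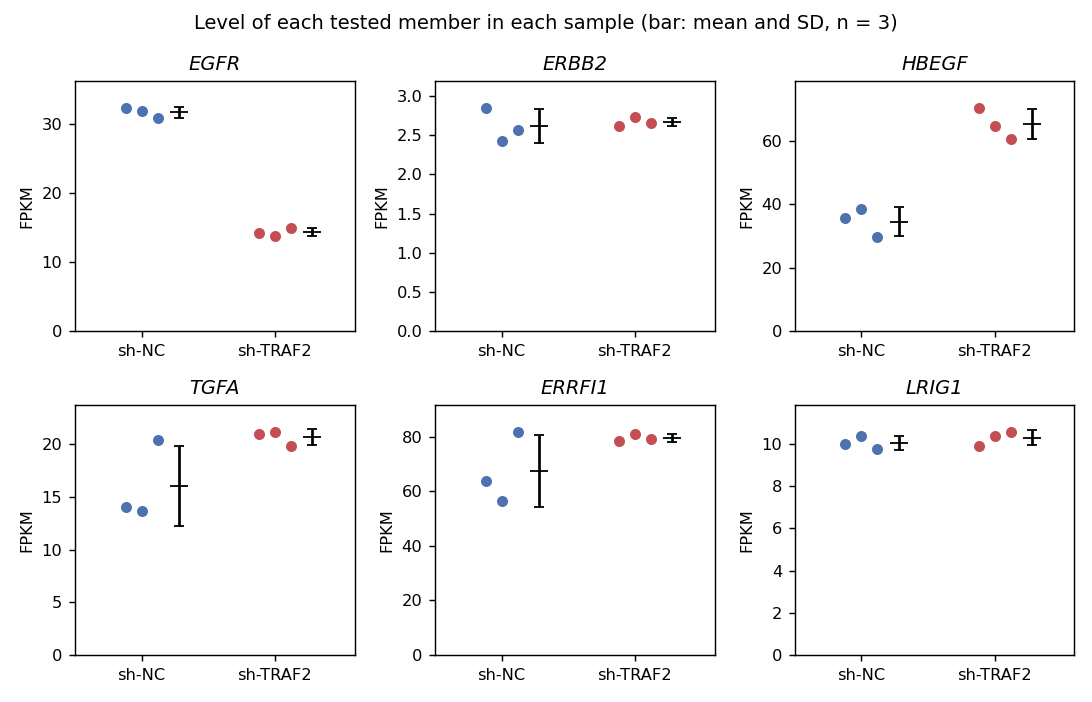
FPKM of the 6 tested members in each sample, on linear axes that start at 0, with the 3 sh-NC samples in blue, the 3 sh-TRAF2 samples in red, and black bars for the mean and SD of each group. EGFR and HBEGF separate the groups in opposite directions, and in TGFA and ERRFI1 1 sh-NC sample lies near the sh-TRAF2 samples.

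EGFR lies on chromosome 7 of GRCh38 from 55019021 to 55211628, on the plus strand. Its FPKM was 32.4, 32.0 and 30.9 in sh-NC and 14.3, 13.8 and 15.0 in sh-TRAF2. Every sh-TRAF2 sample thus lay below every sh-NC sample, with little spread inside either group, as 55.5% of all tested genes separated in one direction or the other. The mean went from 31.8 ± 0.763 to 14.3 ± 0.607 FPKM (SD, n = 3), lower by 54.9%. On the log2 scale the change was -1.14 (SE 0.046, 95% interval -1.25 to -1.04, adjusted p = 2.23e-06 from limma). By this change it ranked 56 from the lowest of the 11870 genes. A two-sided exact permutation test over the 20 assignments of samples to groups gave p = 0.1, the smallest that 3 samples against 3 allow. These values rest on 13093 to 13174 reads per sample in sh-NC and 5394 to 5999 in sh-TRAF2. EGFR-AS1, which overlaps EGFR on the other strand, was at most 0.289 FPKM in any sample.

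The hairpin targets of the knockdown and the matching stretches of EGFR are shown because EGFR is the member that fell. The study lists 2 hairpins against TRAF2 and its methods do not say which was sequenced. The 7 bases ATTCCAC, positions 10 to 16 of the sh-TRAF2#1 target counted from its 5′ end, are in capitals. They were searched for because earlier results of these data had picked them out, so a match is a description and supports nothing by itself.
sh-TRAF2#1 target: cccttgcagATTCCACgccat
sh-TRAF2#2 target: ctggaccaagacaagattgaa
EGFR coding sequence, exon 26 of 28, chr7:55201740-55201769, plus strand: aaccagcaacaATTCCACcgtggcttgcat
EGFR 3′UTR, exon 28 of 28, chr7:55209497-55209526, plus strand: agtgagctgctATTCCACgtaggcaacacc

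Both EGFR stretches come from GENCODE release 29 transcript EGFR-201 (9821 bases, with a 3′UTR of 6011 bases), the transcript of the gene with the longest 3′UTR, read on the transcript strand. The run shared with the hairpin target was 7 bases at the coding site and 8 at the 3′UTR site. None of the other 8 members held the 7 bases in the transcript chosen the same way. The 3′UTR of EGFR is also long. Among tested genes with a 3′UTR, 10.7% of 10822 held the 7 bases there. Of these 1153 genes 36.5% passed the test as lower, with a median log2 fold change of -0.11, against 22% and 0.01 over all 10822. Of the 50 genes that fell as far as EGFR or further, itself included, 23 held them. Among the 659 with a 3′UTR within 20% of the length of that of EGFR, 30.2% did. Of those 659 genes, 30.7% passed the test as lower with a median log2 fold change of -0.07. Of the 199 among them that held the 7 bases, 35.7% did, with a median of -0.10. Only 2 of the 659, EGFR included, fell as far as EGFR or further, and of the 199 only EGFR itself. A further 115 tested genes were counted that held the 7 bases both in the 3′UTR and before it, as EGFR does. Among these EGFR alone fell that far. Since earlier results of these same data had picked out the 7 bases, these shares and counts are descriptions too and support nothing by themselves. Whether the matches bear on the level of EGFR was not tested. The labels set no second hairpin apart, so loss of TRAF2 and any other effect of the hairpin cannot be told apart in these samples. Without regard to position, the longest run shared with the sh-TRAF2#1 target was 6 to 9 bases over the 9 members and 8 in EGFR. With the sh-TRAF2#2 target it was 7 to 10 bases and 8 in EGFR.

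Of the partner receptors, ERBB2 did not pass the test and ERBB3 was too low to test. ERBB2, on chromosome 17 from 39687914 to 39730426, had 2.85, 2.43 and 2.57 FPKM in sh-NC and 2.62, 2.73 and 2.66 in sh-TRAF2. The sh-TRAF2 samples lay inside the range of the sh-NC samples. On the log2 scale the change was 0.03 (SE 0.082, 95% interval -0.16 to 0.22, adjusted p = 0.784 from limma). MIEN1, at 15.9 to 19.4 FPKM, and PGAP3 overlap ERBB2 on the other strand, and since the use of strand in counting is not stated, some reads of ERBB2 are uncertain. EGFR was 11.4 to 13.2 times as abundant as ERBB2 per length in the sh-NC samples and 5.04 to 5.63 times in the sh-TRAF2 samples. The reads of ERBB3, at the edge of detection, were 7, 0 and 5 in sh-NC and 2, 1 and 2 in sh-TRAF2. A difference was not detectable at this depth.

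HBEGF, a heparin-binding ligand of EGFR, rose most among the members. Its locus is on the minus strand of chromosome 5, 140332843 to 140346631. Its FPKM was 35.7, 38.4 and 29.6 in sh-NC and 70.4, 64.8 and 60.7 in sh-TRAF2. The lowest sh-TRAF2 sample lay well above the highest sh-NC sample. The mean went from 34.6 ± 4.5 to 65.3 ± 4.89 FPKM (SD, n = 3), a ratio of 1.89. On the log2 scale the change was 0.92 (SE 0.094, 95% interval 0.71 to 1.14, adjusted p = 0.000152 from limma), under the fold threshold of the study. The exact permutation test again gave its smallest p of 0.1. No annotated gene overlaps HBEGF in GENCODE release 29.

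TGFA, a soluble ligand specific to EGFR, rose less and less evenly. Its locus is on the minus strand of chromosome 2, 70447280 to 70554193. Its FPKM was 14.0, 13.7 and 20.4 in sh-NC and 21.0, 21.2 and 19.8 in sh-TRAF2. The groups overlapped, because sh-NC replicate 3 lay above sh-TRAF2 replicate 3. On the log2 scale the change was 0.38 (SE 0.14, 95% interval 0.07 to 0.70, adjusted p = 0.048 from limma), and the exact permutation p was 0.2. Without sh-NC replicate 3 it was 0.57 (adjusted p = 0.000269 from limma), but leaving out sh-NC replicate 2 gave 0.28, which did not pass (limma adjusted p = 0.136). Leaving out any other sample also gave a change that did not pass (limma adjusted p from 0.0783 to 0.142).

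AREG and EREG, the ligands amphiregulin and epiregulin, were almost absent. AREG had 1, 0 and 4 reads in sh-NC and 0 in each sh-TRAF2 sample, where a count of 0 allows up to 3 reads per library, or 0.0709 FPKM at most. EREG had 19, 22 and 15 reads in sh-NC and 13, 14 and 24 in sh-TRAF2. The sh-TRAF2 range of EREG enclosed the whole sh-NC range, and both genes were under the filter on low values. HBEGF and TGFA therefore made up nearly all of the summed level of the 4 ligands. That sum was 49.9, 52.2 and 50.2 FPKM in sh-NC and 91.5, 86.0 and 80.6 in sh-TRAF2. HBEGF held 59% to 73.6% of it in sh-NC and 75.3% to 77% in sh-TRAF2.

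ERRFI1, the feedback inhibitor of the kinase, was the most abundant member. It lies on chromosome 1 from 8004404 to 8026308. Its FPKM was 63.8, 56.6 and 81.9 in sh-NC and 78.3, 81.1 and 79.2 in sh-TRAF2. As with TGFA, sh-NC replicate 3 was the sample out of place, here above every sh-TRAF2 sample. On the log2 scale the change was 0.25 (SE 0.11, 95% interval -0.0043 to 0.51, adjusted p = 0.0996 from limma), which did not pass. Without sh-NC replicate 3 it was 0.40 and passed (adjusted p = 0.00135 from limma). That sample was picked out from these same values, however. Leaving out sh-NC replicate 2 gave 0.14, which did not pass (limma adjusted p = 0.269). With all samples ERRFI1 passed with limma-voom on recovered reads (adjusted p = 0.0421). It passed in 2 of the 15 alternative settings.

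LRIG1, which promotes the breakdown of ERBB receptors, hardly varied. It lies on chromosome 3 from 66378797 to 66501263. Its FPKM was 10, 10.4 and 9.76 in sh-NC and 9.91, 10.4 and 10.6 in sh-TRAF2. On the log2 scale the change was 0.04 (SE 0.051, 95% interval -0.08 to 0.15, adjusted p = 0.594 from limma). SLC25A26 overlaps LRIG1 on the other strand at 3.06 to 3.37 FPKM.

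**Figure D2:**
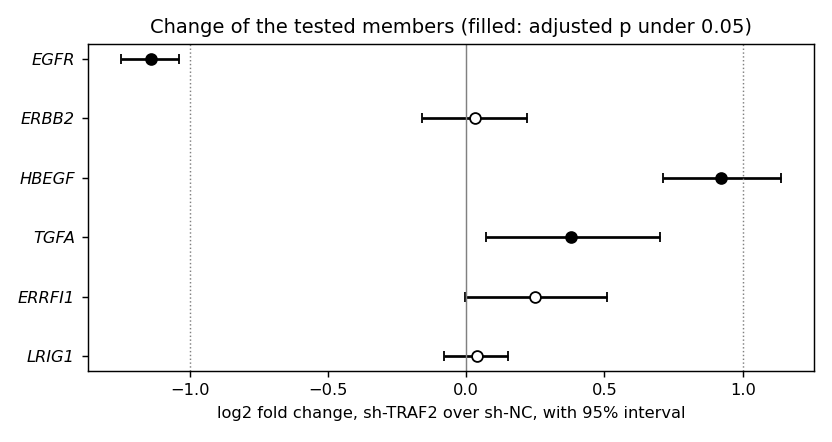
Log2 fold change of sh-TRAF2 over sh-NC for the 6 tested members, with 95% intervals from limma, filled where the adjusted p was under 0.05 and with dotted lines at -1 and 1. EGFR stands at -1.14 and HBEGF at 0.92, while the intervals of ERBB2, ERRFI1 and LRIG1 include 0.

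Set in order of level per length, the members ran in sh-NC from ERRFI1 (67.4 FPKM) through HBEGF (34.6), EGFR (31.8), TGFA (16.1), LRIG1 (10.1) and ERBB2 (2.62) to EREG (0.112). HBEGF and EGFR overlapped in sh-NC and cannot be ordered there. In sh-TRAF2 the order was ERRFI1 (79.5), HBEGF (65.3), TGFA (20.6), EGFR (14.3), LRIG1 (10.3) and ERBB2 (2.67), with no overlap between neighbours. EGFR thus stood above TGFA in every sh-NC sample and below it in every sh-TRAF2 sample. AREG and ERBB3 were the lowest in both groups and overlapped each other in sh-NC.

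The ratio of HBEGF to EGFR within a sample was 1.1, 1.2 and 0.959 in sh-NC and 4.94, 4.71 and 4.06 in sh-TRAF2. The ratio of TGFA to EGFR was 0.434, 0.427 and 0.661 in sh-NC and 1.47, 1.54 and 1.32 in sh-TRAF2. For ERRFI1 to EGFR it was 1.97, 1.77 and 2.65 in sh-NC and 5.49, 5.89 and 5.29 in sh-TRAF2. None of these ratios overlapped between the groups, but EGFR, their shared denominator, had itself fallen with little spread. The levels of TGFA and ERRFI1 overlapped, so for them the separation says little beyond the fall of EGFR. A limma fit on each gene relative to EGFR in the same sample tested whether a member moved by another amount than EGFR. All 5 other tested members passed, but so did 98.7% of all genes, since EGFR itself had moved. The difference in log2 fold change was 2.07 for HBEGF (95% interval 1.87 to 2.26), 1.53 for TGFA (1.23 to 1.82) and 1.40 for ERRFI1 (1.15 to 1.65). For LRIG1 and ERBB2 it was 1.18 (1.03 to 1.33) and 1.17 (0.96 to 1.39).

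**Figure D3:**
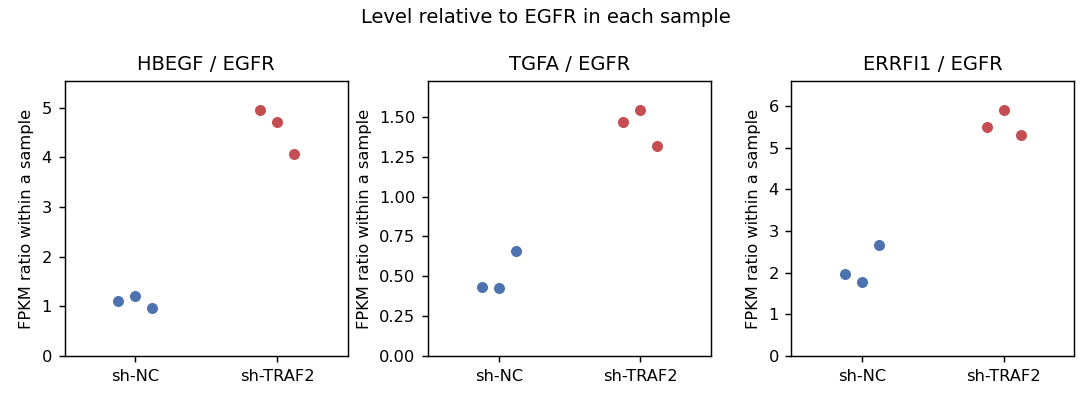
FPKM of HBEGF, TGFA and ERRFI1 divided by that of EGFR in the same sample, for the 3 sh-NC samples (blue) and the 3 sh-TRAF2 samples (red), on linear axes that start at 0. The HBEGF ratio went from 0.959 to 1.2 in sh-NC to 4.06 to 4.94 in sh-TRAF2.

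The 3 genes whose pattern over the 6 samples was most like that of EGFR were LRATD2, ST6GALNAC4 and UBE2H. Likeness was the root mean square difference of log2 values centred on each gene's mean, which was 0.039, 0.0461 and 0.0507. LRATD2 went from 18.7, 18.7 and 18.0 FPKM in sh-NC to 8.83, 8.15 and 9.13 in sh-TRAF2. With only 2 groups this measure mostly finds genes with a fall of the same size.

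The remaining ERBB receptors and ligands were then read as a list of 8 genes, of which 4 were tested. EGF, the ligand that gave the receptor its name, rose, NRG1, a ligand of ERBB3 and ERBB4, fell, and BTC and NRG2 did not pass. That is 2 of 4, against 44.6% of all genes tested. EGF had 1.07, 1.13 and 1.04 FPKM in sh-NC and 2.04, 2.16 and 2.2 in sh-TRAF2, with no overlap. It moved by 0.92 on the log2 scale (SE 0.095, limma adjusted p = 0.000163). With a pseudocount of 1 the value of EGF was 0.59. NRG1 went from 10.6 ± 0.755 to 8.50 ± 0.295 FPKM (SD, n = 3), or -0.31 on the log2 scale (adjusted p = 0.00472 from limma). BTC, the ligand betacellulin, had a log2 fold change of -0.28 (adjusted p = 0.222 from limma). ERBB4 was at 0.0911 FPKM or less in every sample and was not tested, as were EPGN, NRG3 and NRG4.

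Among genes that move or cut the ligand precursors, those that passed were lower. Of 11 tested genes of ligand shedding and trafficking, 5 passed as lower, against 20.9% of all genes, and 0 as higher, against 23.7%, with a median log2 fold change of -0.23 against 0.02 over all genes. As with the other lists, these genes were chosen with earlier results of these data known. Those lower were TGOLN2, FRMD8, ADAM12, ADAM17 and ADAM10. TGOLN2, a protein that cycles through the trans-Golgi network, went from 69.1 ± 0.988 to 41.0 ± 0.369 FPKM (SD, n = 3), or -0.75 on the log2 scale (adjusted p = 2.97e-06 from limma). FRMD8, which binds the iRhom partners of ADAM17, went from 8.78 ± 0.0177 to 6.78 ± 0.282 FPKM (log2 fold change -0.37). ADAM12, a metalloprotease known to cut HBEGF, went from 9.54 ± 0.393 to 7.60 ± 0.107 FPKM (log2 fold change -0.32). ADAM17, the main sheddase of TGFA and HBEGF, was named after its values were seen. It had 31.7, 28.3 and 33.8 FPKM in sh-NC and 24.6, 22.6 and 24.2 in sh-TRAF2, with no overlap, and a log2 fold change of -0.39 (adjusted p = 0.00217 from limma). ADAM9, the most abundant gene of the list, was also named after its values were seen. It went from 132 ± 0.914 to 137 ± 1.8 FPKM and did not pass (log2 fold change 0.06, adjusted p = 0.136 from limma).

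All 21 genes of receptor attenuation and endocytosis were tested, 6 passed as higher and 6 as lower, and the median was 0.00. Over all genes 23.7% were higher and 20.9% lower, so these shares are near the background. With any 1 sample left out, 3 or 4 passed as higher. EPN1, an endocytic adaptor, went from 7.91 ± 0.0776 to 11.9 ± 0.163 FPKM (SD, n = 3), or 0.58 higher on the log2 scale. RAB5A, a GTPase of early endosomes, went from 44.0 ± 4.15 to 63.7 ± 2.95 FPKM (0.54). CLTC, the clathrin heavy chain, went from 121 ± 1.31 to 99.8 ± 2.39 FPKM (-0.28). CBL, the ubiquitin ligase that marks active EGFR for breakdown, had a log2 fold change of -0.03 (adjusted p = 0.653 from limma) and was named after its values were seen.

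Of 21 tested adaptors and kinases next to the receptor, 7 passed as higher, against 23.7% of all genes, and 9 as lower, against 20.9%, with a median of -0.03. PIK3CA, the catalytic subunit of a PI3 kinase, went from 6.52 ± 0.127 to 4.35 ± 0.245 FPKM (SD, n = 3), or -0.58 on the log2 scale (limma adjusted p = 0.000191). AKT1, the kinase downstream of it, went the other way, from 21.8 ± 0.402 to 34.2 ± 1.5 FPKM (0.65).

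Transcripts that ERK signalling is known to induce were read as a last list of 12 genes, all of them tested. They were chosen from textbook knowledge, but with earlier results of these data known. FOS, EGR1, SPRY2, IER3, DUSP6 and SPRY4 passed as higher, MYC and PHLDA1 as lower, and the median was 0.22. Those are 6 and 2 of 12, against 23.7% and 20.9% of all genes. DUSP6 passed narrowly (adjusted p = 0.0461 from limma) with overlapping groups, and with no filter it did not pass (limma adjusted p = 0.125). FOS, an AP-1 subunit, went from 0.293 ± 0.0474 to 1.36 ± 0.264 FPKM (SD, n = 3), and EGR1, an immediate early transcription factor, from 7.83 ± 1.92 to 16.7 ± 1.04 FPKM. Their log2 fold changes were 1.89 and 1.11, and neither gene's groups overlapped. With a pseudocount of 1 the value of FOS was 0.87. FOS averaged under the 0.5 FPKM filter in sh-NC (19, 21 and 27 reads) and was tested only through its sh-TRAF2 level. With the filter raised to 1 FPKM it was not tested, and 5 genes of the list passed as higher. The count was also 5 with no filter, TPM rescaling, quantile normalization or eBayes without a trend. With any 1 sample left out it was 5 or 6. PHLDA1, a further early response gene, went from 168 ± 3.33 to 112 ± 12 FPKM, a log2 fold change of -0.59.

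**Figure D4:**
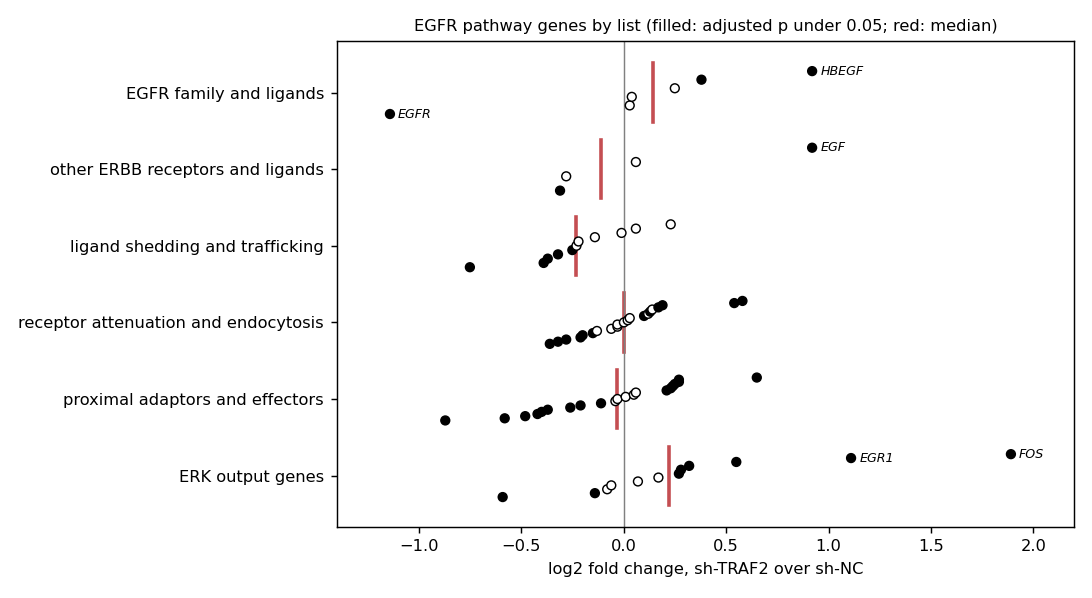
Log2 fold change of sh-TRAF2 over sh-NC for every tested gene of the EGFR family and of the 5 other lists, 1 point per gene, filled where the adjusted p from limma was under 0.05, with a red line at the median of each list. Names are printed for genes beyond 0.9 in either direction. The medians run from -0.23 for ligand shedding and trafficking to 0.22 for the ERK output genes.

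Over the 15 other ways of processing or leaving out samples, EGFR stayed between -1.18 and -1.10 and HBEGF between 0.81 and 1.00 on the log2 scale, and both passed in all 15. TGFA ranged from 0.28 to 0.57 and passed in 6 of 15. ERRFI1 ranged from 0.14 to 0.40 and passed in 2 of 15. ERBB2 (-0.02 to 0.09) and LRIG1 (0.01 to 0.06) passed in none, with adjusted p from limma of at least 0.376.

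**Figure D5:**
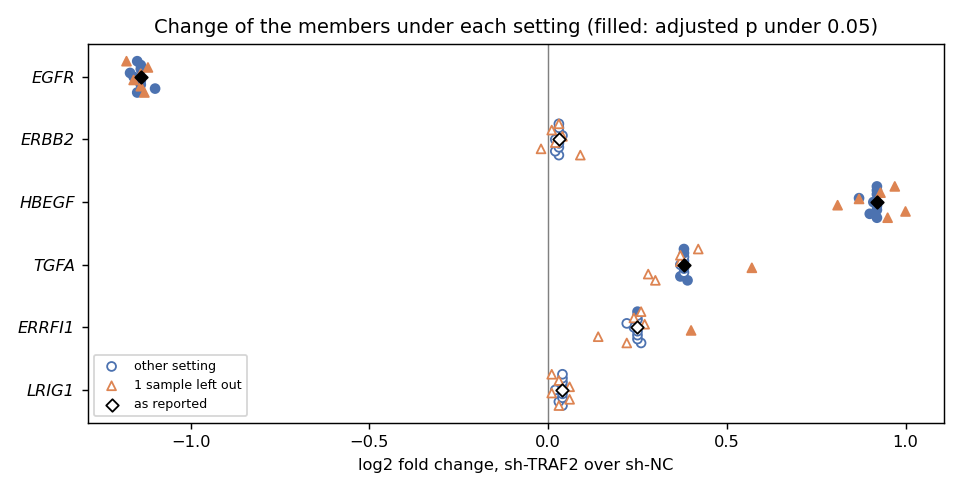
Log2 fold change of the 6 tested members as reported (black diamonds), with 1 sample left out (orange triangles) and under the other settings (blue circles), filled where the adjusted p was under 0.05. EGFR and HBEGF are filled throughout, while TGFA and ERRFI1 change between filled and open.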

How the data were processed

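The authors deposited 1 table of FPKM values, a column per sample, with 0 columns left without a sample. Library preparation, sequencing and processing were carried out by OE Biotech. The submitters' processing notes name HISAT2, HTSeq, R 3.2.0 and DESeq2 without their roles. The genome build, annotation and use of strand are not given in the sources used here.

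From this FPKM table, genes averaging 0.5 FPKM or more were compared as log2(FPKM + 0.1) with limma 3.58.1 in R 4.3.3 (eBayes with a trend, two-sided), adjusted by Benjamini-Hochberg over 11870 genes. A pseudocount shrinks the changes of low genes. Reads were recovered as the smallest whole numbers behind the FPKM steps, for 100% of 23002 genes (tolerance 0.01 reads). A gene with reads in 1 sample only was set to 1 read (2643 genes). On these reads limma-voom called 3022 genes higher and 2737 lower of 14130. Floors cover counting error only. Replicates of a group differed by more than counting noise (chi-square per gene 5.01 to 12.2).

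Samples were grouped by the labels' titles. Named are TRAF2, the 9 members, the 3 genes with the smallest adjusted p in each other list, the 3 genes most like EGFR, and any gene said to be chosen later. A gene that this rule would name is not reported here. Genes listed by name as passing in a list complete its count. The members, lists and the heptamer were chosen with earlier results of these data known. Positions and sequences came from GENCODE release 29 (GRCh38), matched by NCBI Gene number, and the hairpin targets from the study's supplementary table. Alternative settings changed the pseudocount to 0.01 or 1, dropped the filter, raised it to 1 FPKM, or used TPM rescaling, quantile normalization, eBayes without a trend, the replicate number as a block, limma-voom on recovered reads (10 reads or more on average) or left out each sample in turn.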

Additional observations from a re-analysis of the deposited data

How the results depend on the processing

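Leaving out each sample in turn, the members passing as higher ranged from 1 to 3, those past the fold threshold from 1 to 2 (HBEGF joined EGFR without sh-NC replicate 2), the higher genes of receptor attenuation and endocytosis from 3 to 4 and those of ligand shedding and trafficking from 0 to 1. With no filter, TPM rescaling, quantile normalization or eBayes without a trend, 1 member passed as higher, since TGFA then missed the threshold (adjusted p from limma 0.139, 0.0555, 0.0511 and 0.0943). With no filter, 8 members differed from EGFR, because AREG, EREG and ERBB3 were then tested, but at their levels the pseudocount holds a change near 0, so this says nothing about them. ERBB2 ranged from -0.02 (without sh-NC replicate 2, a change of sign) to 0.09 with 1 sample left out. The replicate number did not pair the samples (correlations of same-numbered deviations -0.08, 0.07 and 0.07), and with it as a block 2 members were higher, 1 was lower and 5 differed from EGFR. Reads limit AREG, ERBB3 and EREG. Apart from what is stated here, the cause was not tested.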
